A study of Mus musculus with 16 samples.

Results

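Toll-like receptors are the sensors with which innate immune cells recognise microbial products and debris of damaged cells, and 10 genes of this system were followed here. They were the receptor genes Tlr1, Tlr2, Tlr3, Tlr4, Tlr6, Tlr7 and Tlr9, the co-receptor gene Cd14, the adaptor gene Myd88 and Irak3, which encodes an inhibitor of the pathway. They were taken by gene symbol from 55414 features counted in mouse microglia and 56980 counted in mouse astrocytes, and each symbol named 1 feature in each cell type. All 10 had enough reads to be tested in microglia and 9 in astrocytes, where Tlr9 did not. RNA sequencing covered 16 libraries, 2 in each of 4 groups per cell type. The WT group had genotype WT. The CKO group carried a conditional knockout of Rack1, a scaffold protein of the ribosome and of kinase signalling, which the series describes as directed to microglia. The AD WT group carried a model of Alzheimer's disease without the knockout, and the AD CKO group carried the model and the knockout. The labels name neither the disease model nor the Cre driver, the age and sex of the mice or how the cells were isolated. Nor do they say if libraries of the same group were taken from separate animals, so the p-values measure only the spread between these libraries, which may be technical.

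Toll-like receptors at the cell surface bind lipids and proteins of microbes, TLR2 as a pair with TLR1 or TLR6 and TLR4 with help from CD14, while TLR3, TLR7 and TLR9 sit in endosomes and bind nucleic acids. Most of them signal through the adaptor MyD88 to IRAK kinases, TRAF6 and the transcription factor NF-kB, whereas TLR3 uses the adaptor TRIF instead. IRAK3, also called IRAK-M, holds this cascade back. In the brain microglia are known as the main carriers of these receptors, TLR2, TLR4 and CD14 are known to take part in the response to amyloid, and TLR3 is the family member best known from astrocytes.

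Tlr1 and Tlr6 lie on the minus strand of chromosome 5, Tlr1 at chr5:64924679-64933563 and Tlr6 at chr5:64952031-64960097 (GENCODE M21, mouse build GRCm38, the assembly of mm10). Part of their coding sequence is the same, which matters for any count of their reads. The longest shared run is 229 bases, all coding, in exon 4 of 4 of Tlr1 (chr5:64925537-64925765) and in exon 2 of 2 of Tlr6 (chr5:64953828-64954056). It is shown 5′ to 3′ on the coding strand in lower case, because a read from within it cannot be placed in either gene by its own bases alone.
Tlr1 and Tlr6: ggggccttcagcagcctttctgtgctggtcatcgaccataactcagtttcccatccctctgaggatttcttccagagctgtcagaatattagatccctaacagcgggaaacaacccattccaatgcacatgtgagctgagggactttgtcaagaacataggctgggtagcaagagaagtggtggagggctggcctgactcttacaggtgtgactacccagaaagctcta
Of all stretches of 150 bases, the read length, in the transcripts, Tlr1 shared 4.3% with Tlr6, and Tlr6 shared 3.86% with Tlr1. These shares are for single reads and include shared stretches outside the run shown. Reads came in pairs, and a mate outside the shared sequence, which can place its pair, was not considered. How reads from the shared sequence were divided is not given in the sources used here. A small part of the reads of both genes is therefore uncertain.

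RefSeq windows of the 250 bases before the transcription start (build GRCm38.p6) were held for 7 of the 9 genes looked up. Tlr2 and Myd88 are shown because they moved in opposite directions in the knockout microglia described below. Only the part of each window outside annotated exons is printed, on the strand of the gene, with the NF-kB match of Tlr2 and the GAAANNGAA match of Myd88 in capitals. The Tlr2 run, chr3:83841768-83841858 on the minus strand, lies just before the gene (chr3:83836272-83841767). Its capitals mark overlapping matches to the NF-kB consensus, GGGGAATTCC from base -173 to -164 and GGGAATTCCC from base -172 to -163, the latter also read on the opposite strand. The Myd88 run, chr9:119340042-119340268 on the minus strand, lies within the span of the gene (chr9:119335934-119341411), upstream of the RefSeq start. Its capitals mark a match to GAAANNGAA, a core of the elements bound by interferon regulatory factors, from base -40 to -32, and the GC box from base -55 to -50 is left in lower case.
Tlr2: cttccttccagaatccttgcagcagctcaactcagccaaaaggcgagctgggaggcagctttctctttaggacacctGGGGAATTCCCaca
Myd88: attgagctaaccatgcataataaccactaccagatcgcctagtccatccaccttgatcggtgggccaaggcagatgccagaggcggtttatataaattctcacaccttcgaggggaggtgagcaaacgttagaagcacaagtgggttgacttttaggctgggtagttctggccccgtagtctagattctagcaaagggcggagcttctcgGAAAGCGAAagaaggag
Over both strands, NF-kB matches were found in the 250-base windows of Tlr2 and Tlr3, and in 8.23% of all genes with a window. Matches to GAAANNGAA were found for Tlr6, Myd88 and Irak3, and for 8.18% of genes. GAGGAA, the core bound by PU.1, was found for Tlr1 and Tlr9 and for 25.9% of genes, and the GC box GGGCGG for Tlr2, Myd88 and Irak3 and for 35.4% of genes. The matches shown in capitals overlapped no match of another of these motifs, and a match describes letters only.

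Libraries held 27741882 to 33933068 counts in microglia and 29615853 to 35851170 in astrocytes, and values are given as CPM, read counts brought to the same total per library by TMM. Rack1 itself was at 98.1 and 95.2 CPM in the WT microglia libraries, 40.4 and 42.0 in CKO, 113 and 115 in AD WT and 47.2 and 47.8 in AD CKO, so the labels of the knockout held in all 8 microglia libraries. In astrocytes Rack1 was higher in CKO than in WT by 0.74 ± 0.060 on the log2 scale (SE) and lower in AD CKO than in AD WT, where it fell by 0.47 ± 0.060. For astrocytes CKO and AD CKO therefore name the group only and do not mean that the sequenced cells lacked Rack1. All 12 microglial markers of a fixed list were above 1 CPM in all 16 libraries, and all 10 astrocyte markers were so in the microglia libraries too, so marker transcripts of the other cell type were found in both. Summed microglial markers in the microglia libraries ran from 60162 to 62503 CPM in WT, 40605 to 41891 in CKO, 57621 to 57871 in AD WT and 44996 to 46542 in AD CKO. In bulk libraries, fewer cells of a type and less RNA per cell cannot be told apart. All tests are edgeR quasi-likelihood tests with Benjamini-Hochberg adjustment over all genes tested, called at an adjusted p under 0.05, with ± as SE for log2 values and SD (n = 2) for CPM. Comparisons that share a group share its libraries and are not independent.

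Per kilobase of annotated exon, Cd14 and Tlr2 were the highest of these genes in microglia. In WT the level of Cd14 was 234 ± 2.31 CPM per kilobase, followed by Tlr2 at 65.9 ± 1.99, Tlr7 at 58.1 ± 0.484, Myd88 at 41.6 ± 0.312 and Tlr4 at 26.3 ± 0.0385. Tlr3 at 19.5 ± 0.332 and Tlr1 at 19.5 ± 0.515 did not differ beyond their spread, Tlr6 was at 13.1 ± 0.823, Irak3 at 2.58 ± 0.218 and Tlr9, a receptor for DNA, at 0.662 ± 0.0712. In CKO Tlr2 was first at 200.2 ± 5.2 and Cd14 second at 160 ± 4.62. In AD WT and AD CKO Cd14 was again first, at 299.1 ± 7.46 and 343 ± 1.89, and Tlr2 second, at 90.2 ± 2.77 and 266 ± 15.6. The places of Tlr7, Myd88, Tlr6, Irak3 and Tlr9 were the same in all 4 groups. Between Myd88 and Tlr6, the order of Tlr4, Tlr3 and Tlr1 shifted between groups and, with the longest transcript as length, Tlr4 was ahead of Tlr3 in each.

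**Figure D1:**
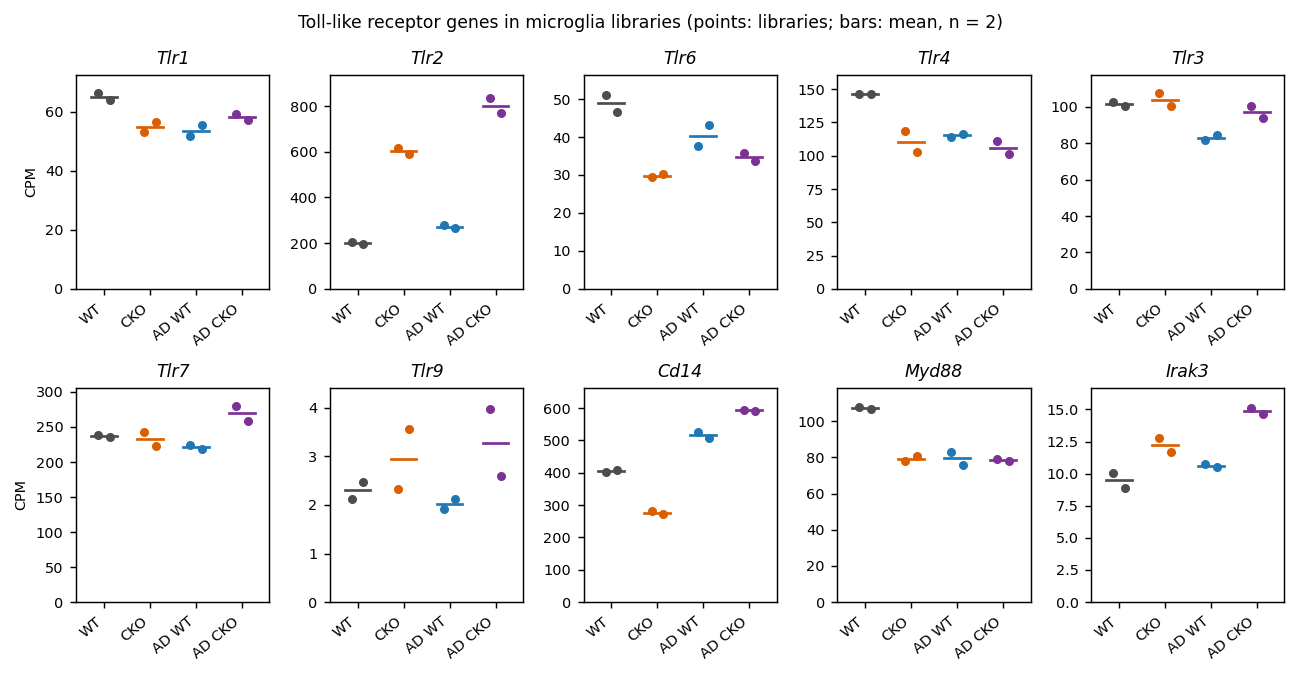
CPM of the 10 genes in the 8 microglia libraries, with points for libraries, bars for the mean of the 2 libraries of a group and each vertical axis starting at 0. The Tlr2 libraries of CKO and AD CKO lie between 592 and 834 CPM and those of WT and AD WT between 194 and 278.

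In microglia Tlr2 rose with the knockout in either background, whereas Tlr1, Tlr4, Tlr6, Cd14 and Myd88 fell in CKO against WT and none of them was called lower in AD CKO against AD WT. Of the 10 genes, 2 rose in CKO against WT (17.7% of all genes tested did) and 5 fell (15.9% of all), with a median log2 difference of -0.14 against 0.04 over all genes. Within the disease model, 5 of the 10 rose in AD CKO against AD WT (17.0% of all) and 0 fell (15.0% of all), with a median of 0.21 against 0.00 over all genes. The genes that rose in both were Tlr2 and Irak3. At an unadjusted p under 0.05, 1 gene, Tlr6, was lower in AD CKO than in AD WT, and DESeq2 called 0 there.

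Tlr2, the receptor for bacterial lipoproteins, was at 203 and 194 CPM in WT, 615 and 592 in CKO, 278 and 266 in AD WT and 834 and 768 in AD CKO. The knockout libraries of either background lay above all WT and AD WT libraries. Tlr2 rose 3.04-fold in CKO against WT (log2 1.60 ± 0.046, adjusted p = 9.18e-21) and 2.94-fold in AD CKO against AD WT (1.56 ± 0.045, adjusted p = 3.95e-20). It also rose with the disease model, 1.37-fold in AD WT against WT (0.45 ± 0.045, adjusted p = 1.24e-08) and 1.33-fold in AD CKO against CKO (0.41 ± 0.044, adjusted p = 7.4e-08). The knockout effect on the log2 scale with the model minus that without it was -0.05 ± 0.063, with a 95% interval from -0.18 to 0.08 and an adjusted p of 0.717.

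The genes of the partners of TLR2 were not among those that rose. Tlr6 was at 51.1 and 46.7 CPM in WT, 29.5 and 30.1 in CKO, 37.7 and 43.1 in AD WT and 35.9 and 33.7 in AD CKO. It fell in CKO against WT by 0.71 ± 0.085 on the log2 scale (adjusted p = 1.07e-07), the largest fall of the 10 genes in that comparison. Tlr1 was at 66.4 and 63.9 CPM in WT, 53.1 and 56.4 in CKO, 51.8 and 55.5 in AD WT and 59.2 and 57.1 in AD CKO, and it fell by 0.25 ± 0.068 in CKO against WT (adjusted p = 0.00508). For both genes the WT libraries were the highest of the 8. The log2 difference in AD CKO against AD WT was -0.22 ± 0.085 for Tlr6 (adjusted p = 0.0511) and 0.12 ± 0.069 for Tlr1 (adjusted p = 0.216). The Tlr6 value passed the threshold under several other settings, among them the replicate block (adjusted p = 0.0407), at nearly the same size.

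Tlr4, the lipopolysaccharide receptor (chr4:66827584-66930284, plus strand), was at 146 and 146 CPM in WT, 118 and 103 in CKO, 114 and 117 in AD WT and 111 and 102 in AD CKO. The WT libraries lay above all others, and Tlr4 fell in CKO against WT by 0.40 ± 0.061 (adjusted p = 7.85e-06). It differed by -0.12 ± 0.062 in AD CKO against AD WT (adjusted p = 0.146), a value that passed without the first AD CKO library (-0.20, adjusted p = 0.0476). Cd14, which hands lipopolysaccharide to TLR4 and also serves TLR2, behaved differently in each background. It was at 403 and 409 CPM in WT, 282 and 271 in CKO, 527 and 509 in AD WT and 596 and 591 in AD CKO, and the 4 groups did not overlap. Cd14 fell by 0.55 ± 0.041 in CKO against WT (adjusted p = 1.15e-11) and rose by 0.20 ± 0.040 in AD CKO against AD WT (adjusted p = 0.000389).

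None of the 3 endosomal receptor genes passed the test in CKO against WT. Tlr7, a sensor of single-stranded RNA on the X chromosome (chrX:167304929-167330558, minus strand), was at 238 and 236 CPM in WT, 243 and 223 in CKO, 224 and 219 in AD WT and 279 and 259 in AD CKO, so that the AD CKO libraries were the highest. Its log2 difference was -0.02 ± 0.049 in CKO against WT (95% interval -0.13 to 0.08), and it rose by 0.28 ± 0.049 in AD CKO against AD WT (adjusted p = 5.13e-05). Tlr3, a sensor of double-stranded RNA (chr8:45395665-45411080, minus strand), was at 103 and 100.4 CPM in WT, 107 and 101 in CKO, 81.5 and 84.7 in AD WT and 101 and 93.6 in AD CKO. The AD WT libraries alone were low, and Tlr3 rose by 0.23 ± 0.059 in AD CKO against AD WT (adjusted p = 0.00394), a call lost without the first AD WT library (0.20, adjusted p = 0.0647) or the first AD CKO library (0.16, adjusted p = 0.109). Tlr9 (chr9:106222598-106226883, plus strand) was at 1.91 to 3.97 CPM over the 8 libraries and passed in no comparison, and the interval of its log2 difference in CKO against WT ran from -0.25 to 0.95. Its difference in AD CKO against AD WT was 0.70 ± 0.294 (adjusted p = 0.072), which passed without the second AD CKO library (0.98, adjusted p = 0.0347).

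Myd88, the adaptor shared by most of these receptors, was at 108 and 107 CPM in WT, 77.8 and 81.0 in CKO, 83.1 and 75.9 in AD WT and 79.3 and 77.8 in AD CKO. The 6 libraries with the knockout, the model or both lay together below WT, and Myd88 fell by 0.43 ± 0.060 in CKO against WT (adjusted p = 1.21e-06). It differed by -0.02 ± 0.060 in AD CKO against AD WT (95% interval -0.14 to 0.11). Irak3 (chr10:120141648-120202130, minus strand), the inhibitor, was at 10.1 and 8.92 CPM in WT, 12.8 and 11.7 in CKO, 10.7 and 10.5 in AD WT and 15.1 and 14.6 in AD CKO. It rose by 0.48 ± 0.131 in AD CKO against AD WT (adjusted p = 0.00528) and by 0.37 ± 0.134 in CKO against WT (adjusted p = 0.0325). The latter call was lost without a filter on low counts (0.34, adjusted p = 0.0799), with DESeq2 (0.35, adjusted p = 0.0799), with the 2 groups fitted alone (0.35, adjusted p = 0.0692) and without the second WT (0.29, adjusted p = 0.204), first CKO (0.28, adjusted p = 0.25) or first AD CKO library (0.35, adjusted p = 0.0519). The kit does not mark strand, and 433 exon bases of Myd88 lie within Acaa1a on the opposite strand, which was at 115 to 138 CPM, while Slc22a14, which spans Myd88 on the same strand, was at 0.342 to 1.06 CPM. Likewise 192 exon bases of Irak3 lie within Tmbim4 on the opposite strand, which was at 103 to 126 CPM, far above Irak3. The antisense gene Gm45542, which covers 569 exon bases of Tlr3, had 0 reads in all microglia libraries and at most 2.18 in an astrocyte library.

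The summed microglial markers were lower in the knockout libraries, as given above, and most marker lists of other cells were higher in CKO, the lymphocyte list being lower. Summed oligodendrocyte markers were at 3141 to 3282 CPM in WT and 8219 to 8613 in CKO, neutrophil markers at 229 to 246 and 625 to 626, and border macrophage markers at 202 to 203 and 368 to 369.6, while lymphocyte markers were at 25.6 to 27.1 in WT and 16.3 to 18.8 in CKO. The border macrophage sums were also higher in AD CKO than in AD WT, at 273 in both libraries against 169 to 171. The oligodendrocyte sums were lower there, at 2258 to 2310 against 3741 to 3745, and so were the neutrophil sums, at 276 to 290 against 441 to 444. The oligodendrocyte marker Cldn11 and the T-cell markers Cd3e and Cd3d were at 0 in at least 1 microglia library. Per 1000 CPM of the summed 12 microglial markers, Cd14 was at 6.70 and 6.54 CPM in WT and 6.96 and 6.47 in CKO. The fall of Cd14 was thus of the size of that of the marker sum. On the same scale Myd88 was at 1.79 and 1.71 in WT and 1.92 and 1.93 in CKO, Tlr1 at 1.10 and 1.02 and at 1.31 and 1.35, and Tlr4 at 2.43 and 2.34 and at 2.92 and 2.45. Tlr6 alone of the 5 genes that fell was lower in both CKO libraries on that scale, at 0.849 and 0.748 in WT and 0.726 and 0.719 in CKO, and Tlr2 was at 3.37 and 3.11 in WT and 15.1 and 14.1 in CKO. The part of the marker shifts in these results was not tested.

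In the microglia without the knockout the disease model was accompanied by lower levels of several receptors and the adaptor and by higher levels of Tlr2 and Cd14. In AD WT against WT 2 of the 10 genes rose (10.7% of all genes tested) and 5 fell (8.62% of all), with a median of -0.23 against -0.02 over all genes. Cd14 rose by 0.35 ± 0.040 (adjusted p = 1.59e-07). Myd88 fell by 0.43 ± 0.060 (adjusted p = 3.18e-06), Tlr4 fell by 0.34 ± 0.061 (adjusted p = 0.000148) and Tlr3 fell by 0.29 ± 0.059 (adjusted p = 0.000533). Tlr1 fell by 0.28 ± 0.069 (adjusted p = 0.00366) and Tlr6 fell by 0.28 ± 0.083 (adjusted p = 0.0184). Both calls were lost without the first AD WT library (-0.23, adjusted p = 0.0926, and -0.18, adjusted p = 0.305), and that of Tlr6 also without the first WT library (-0.21, adjusted p = 0.181). Without the first or second AD WT library the genes called over the whole set went from 3343 to 2180 or 2118. Marker sums moved with this comparison too, with neutrophil sums of 229 to 246 CPM in WT and 441 to 444 in AD WT, endothelial sums of 431 in both WT libraries and 752 to 760 in AD WT, and astrocyte sums of 453 to 471 and 636 to 645, and their part in it was not tested.

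Within the knockout, the disease model was accompanied by higher Cd14, Tlr2 and Tlr7. In AD CKO against CKO these 3 of the 10 genes rose (7.73% of all genes tested) and 0 fell (6.92% of all), with a median of 0.18 against 0.00 over all genes. At an unadjusted p under 0.05 the count lower was also 0 with edgeR, and DESeq2 called 0, but with total counts as the only scaling Tlr3 was called lower (-0.19, adjusted p = 0.0257). Cd14 rose 2.14-fold (log2 1.10 ± 0.041, adjusted p = 1.1e-17), the largest change, beside the Tlr2 rise given above. Tlr7 rose by 0.21 ± 0.049 (adjusted p = 0.00365). This call was lost with total counts as the only scaling (0.12, adjusted p = 0.124) and without the second CKO library (0.14). Per 1000 CPM of the summed microglial markers, Tlr7 was at 5.98 and 5.32 in CKO and 6.21 and 5.57 in AD CKO, which overlapped. Cd14 was at 6.96 and 6.47 against 13.2 and 12.7, and Tlr2 at 15.1 and 14.1 against 18.5 and 16.5. Oligodendrocyte sums were 8219 to 8613 CPM in CKO and 2258 to 2310 in AD CKO. Neutrophil sums were 625 to 626 and 276 to 290, and endothelial sums 476 to 485 and 519 to 526. Their part in these results was not tested.

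For 6 of the 10 genes the knockout effect was higher with the disease model than without it (5.53% of all genes tested were called in that direction), and for 0 it was lower (7.19% of all), with a median of 0.33 against 0.01 over all genes. At an unadjusted p under 0.05 edgeR gave 0 lower too, and DESeq2 called 0. The difference of the effects on the log2 scale was 0.75 ± 0.057 for Cd14 (adjusted p = 1.85e-10), the gene that fell without the model and rose with it. It was 0.50 ± 0.120 for Tlr6 (adjusted p = 0.00531), 0.42 ± 0.085 for Myd88 (adjusted p = 0.00104) and 0.37 ± 0.097 for Tlr1 (adjusted p = 0.0114), genes that fell without the model. It was 0.31 ± 0.070 for Tlr7 (adjusted p = 0.00309) and 0.28 ± 0.087 for Tlr4 (adjusted p = 0.0316). The count went from 6 to 3 without the first AD WT library, where Tlr1 (0.32, adjusted p = 0.0835), Tlr6 (0.41, adjusted p = 0.0607) and Tlr4 (0.27, adjusted p = 0.124) lost the call. The Tlr4 call was also lost with total counts as the only scaling (0.24, adjusted p = 0.085). So it was without either WT, the second CKO, the second AD WT or the first AD CKO library, at 0.18 to 0.30. Oligodendrocyte and neutrophil marker sums, given above, were higher in CKO than in WT but lower in AD CKO than in AD WT. The part of these marker shifts in the differences of the effects was not tested.

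**Figure D2:**
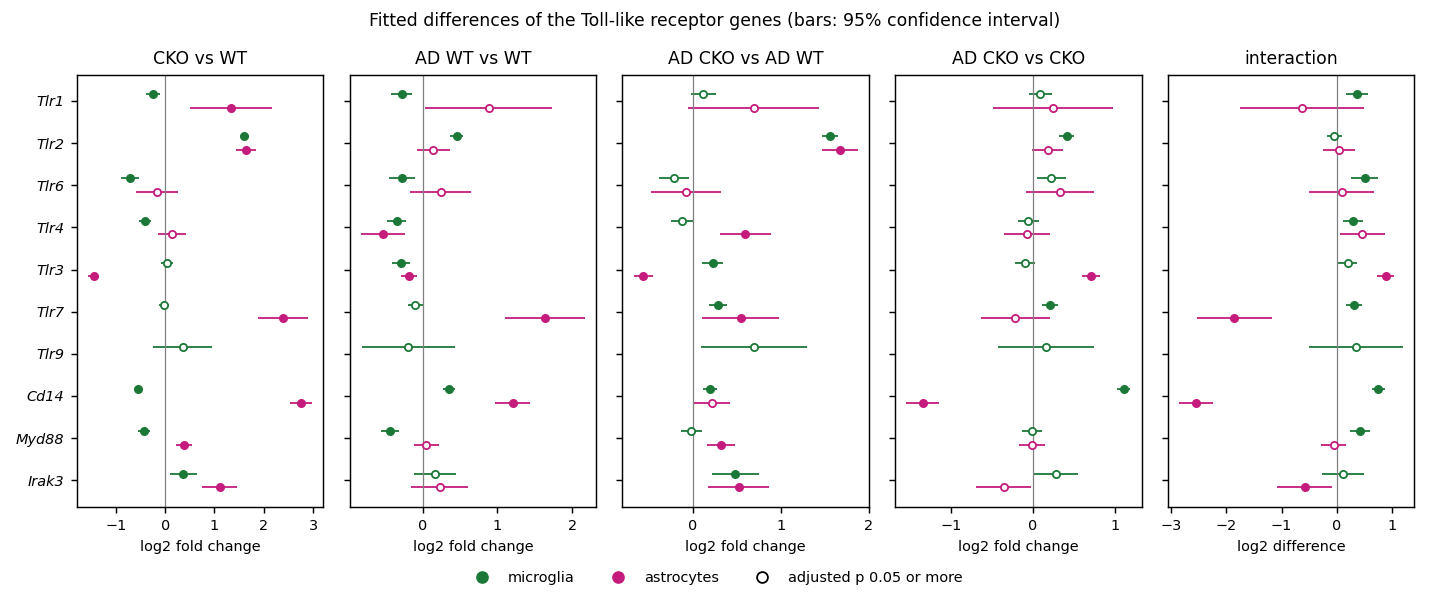
Fitted log2 differences of the 10 genes in the 5 comparisons, green for microglia and pink for astrocytes, with 95% confidence intervals as bars and open points where the adjusted p was 0.05 or more. Tlr2 stands at 1.56 to 1.67 in both knockout comparisons of both cell types, whereas Cd14 in CKO against WT stands at -0.55 in microglia and at 2.76 in astrocytes.

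Around these 10 genes, 66 further genes of the pathway in 7 lists were read in the same fits, and 64 were tested in microglia. In CKO against WT 26 rose and 15 fell (17.7% and 15.9% of all genes tested), with a median of 0.04 as over all genes. In AD CKO against AD WT 24 rose and 10 fell (17.0% and 15.0% of all), with a median of 0.14. The counts of single lists are to be read against the same shares. Of 5 other Toll-like receptor genes, Tlr8, an endosomal RNA sensor, rose by 3.20 ± 0.12 in CKO against WT and by 2.96 ± 0.12 in AD CKO against AD WT, from 4.72 CPM in WT to 43.3 in CKO and from 4.81 in AD WT to 37.5 in AD CKO. Tlr13, a sensor of bacterial ribosomal RNA, rose by 0.54 ± 0.046 and 0.62 ± 0.046, and 2 others of that list fell in each comparison. Among 9 accessory proteins 2 rose and 5 fell in CKO against WT, with Cd36, a scavenger receptor that serves TLR2, up by 1.56 ± 0.10 and the chaperone gene Hsp90b1 down, where it fell by 0.44 ± 0.041. Of 5 other adaptors only Ticam1, which encodes TRIF, rose in CKO against WT (0.32 ± 0.10, adjusted p = 0.0128), a call lost without the first WT (0.26, adjusted p = 0.121) or second CKO library (0.26, adjusted p = 0.134), and Ticam2 rose by 0.42 ± 0.070 in AD CKO against AD WT.

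Downstream in the microglia, 5 of 15 kinase and ubiquitin ligase genes rose and 2 fell in CKO against WT. Ikbke, a kinase of interferon induction, rose by 4.36 ± 0.22 from 0.704 to 14.5 CPM, and Traf3, a ligase of the same branch, rose by 0.80 ± 0.086. Among 9 transcription factor genes 3 rose and 3 fell, with Irf7 up by 1.39 ± 0.078 and the NF-kB subunit gene Relb up by 1.22 ± 0.071. Of 8 negative regulators 6 rose and 0 fell (17.7% and 15.9% of all genes), led by Tnip1 at 1.56 ± 0.084 and Nfkbia, the NF-kB inhibitor, at 0.32 ± 0.046. Of 13 target genes tested 7 rose and 3 fell, with the co-stimulatory gene Cd40 up by 3.74 ± 0.14 and the chemokine gene Cxcl10 up by 2.07 ± 0.092. Ikbke, Traf3, Tnip1, Relb, Cd40 and Cxcl10 also rose in AD CKO against AD WT, by 3.89, 0.74, 1.35, 1.04, 3.62 and 2.29. Of the 8 negative regulators 3 rose and 0 fell there (17.0% and 15.0% of all genes). Nfkbia was at 234 ± 5.55 CPM in AD WT and 232 ± 2.47 in AD CKO. Its knockout effect with the model minus that without it was -0.33 ± 0.065 (adjusted p = 0.000786). Mean Irf7 was 38.0 CPM in AD WT and 60.5 in AD CKO.

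Chemokine genes were among the microglial targets that rose with the disease model. In AD WT against WT 18 of the 64 genes rose and 15 fell (10.7% and 8.62% of all). Ccl3 rose by 1.33 ± 0.045 and Ccl4 by 1.28 ± 0.049, while Nfkb1 fell by 0.37 ± 0.054 and the adaptor gene Tirap fell by 0.44 ± 0.093. In AD CKO against CKO 12 rose and 4 fell (7.73% and 6.92% of all), with Ccl4 up by 0.78 ± 0.049 and Hsp90b1 up by 0.52 ± 0.041. The knockout effect differed with the model for 18 of the 64 genes, 10 higher and 8 lower (5.53% and 7.19% of all), among them Lbp at 1.57 ± 0.26, Ccl3 at -0.68 ± 0.063 and Irf7 at -0.72 ± 0.11. Il10 and Ifnb1 had too few reads to be tested in microglia.

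By centred log2 CPM over the 8 microglia libraries, the 3 genes of widest range between groups were Tlr2 (2.01), Cd14 (1.10) and Tlr6 (0.71). Of 10196 genes compared, those nearest to Tlr2 were Cd244a, Dnase1l1 and Lilr4b, with root mean square differences of 0.116, 0.13 and 0.133. Those nearest to Cd14 were Sdf2l1 (0.146), Clic6 (0.153) and Kpna2 (0.155). Nt5dc2 (0.0505), Decr1 (0.0628) and Wsb1 (0.0633) were nearest to Tlr6. These are descriptions over libraries that share their groups.

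In the astrocyte libraries the levels were ordered differently. In WT Tlr3 was first per kilobase of exon at 45.1 ± 0.269 CPM, followed by Myd88 at 10.2 ± 0.779, Cd14 at 5.48 ± 0.911, Tlr2 at 3.99 ± 0.0867, Tlr4 at 1.63 ± 0.135, Irak3 at 1.24 ± 0.155, Tlr6 at 0.884 ± 0.0177, Tlr7 at 0.279 ± 0.141 and Tlr1 at 0.174 ± 0.0768. The order of Tlr7 and Tlr1 did not differ beyond their spread. In CKO Cd14 was first at 36.9 ± 3.40 and Tlr3 second at 16.5 ± 0.238, and Myd88 at 13.3 ± 0.0379 and Tlr2 at 12.5 ± 1.72 did not differ beyond their spread. In AD WT and AD CKO Tlr3 was first at 39.9 ± 2.22 and 26.9 ± 1.25, and Cd14 second at 12.6 ± 0.410 and 14.6 ± 1.43. Tlr9 had 2 and 8 reads in the WT libraries, 1 and 1 in CKO and 0 in the other 4, so it was not tested.

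**Figure D3:**
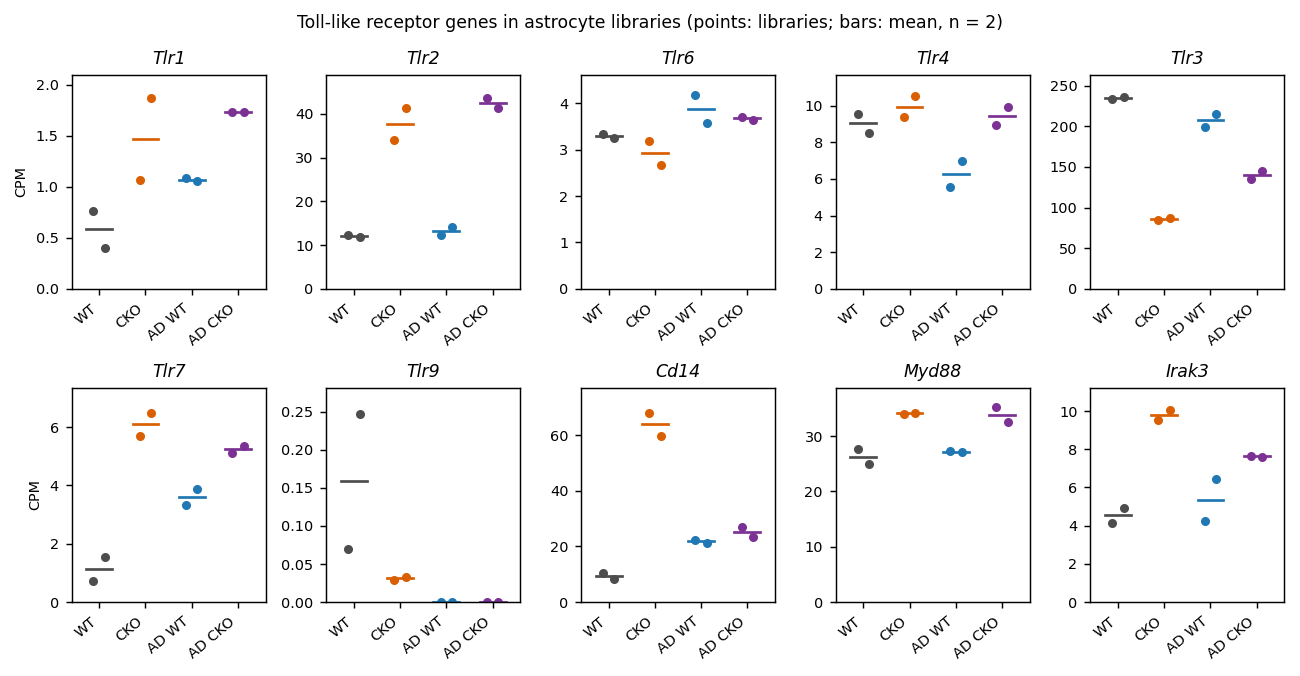
CPM of the 10 genes in the 8 astrocyte libraries, with points for libraries, bars for the mean of the 2 libraries of a group and each vertical axis starting at 0. Tlr3 is at 234 and 236 CPM in WT and at 85.1 and 86.9 in CKO, while Cd14 is at 10.6 and 8.38 in WT and at 68.1 and 59.8 in CKO.

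In the astrocyte libraries most of the 9 tested genes rose with the knockout, and Tlr3, the highest of them in WT, fell. In CKO against WT 6 rose (31.6% of all genes tested) and 1 fell (32.4% of all), with a median of 1.10 against 0.01 over all genes. In AD CKO against AD WT 5 rose (25.1% of all) and 1 fell (27.0% of all), with a median of 0.52 against -0.03 over all genes. These shares of all genes are high, and the counts are to be read against them. Tlr2, Tlr7, Myd88 and Irak3 rose in both comparisons, and Tlr3 fell in both.

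Tlr3 was at 234 and 236 CPM in the WT astrocyte libraries, 85.1 and 86.9 in CKO, 199 and 216 in AD WT and 135 and 145 in AD CKO, and no groups overlapped. It fell 2.73-fold in CKO against WT (log2 -1.45 ± 0.053, adjusted p = 2.73e-16) and 1.48-fold in AD CKO against AD WT (-0.57 ± 0.052, adjusted p = 4.79e-09). The knockout effect was 0.88 ± 0.074 higher with the model than without it (adjusted p = 9.03e-10). The sum of the 10 astrocyte markers moved the same way, at 26674 to 27155 CPM in WT, 11915 to 12280 in CKO, 25289 to 26194 in AD WT and 15954 to 16148 in AD CKO. Single markers were not compared with Tlr3. Oligodendrocyte marker sums were 14325 to 14490 CPM in WT, 12979 to 13306 in CKO, 6744 to 6942 in AD WT and 18905 to 19021 in AD CKO, and endothelial sums 1744 to 1754, 4505 to 4553, 2078 to 2083 and 2419 to 2436. The part of these shifts in the Tlr3 result was not tested.

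Tlr2 was at 12.2 and 11.8 CPM in WT astrocytes, 33.9 and 41.3 in CKO, 12.4 and 14.2 in AD WT and 43.6 and 41.3 in AD CKO. As in microglia, the knockout libraries lay above the others in either background. Tlr2 rose 3.12-fold in CKO against WT (log2 1.64 ± 0.100, adjusted p = 2.76e-12) and 3.19-fold in AD CKO against AD WT (1.67 ± 0.097, adjusted p = 5.2e-12), and the difference of these effects was 0.03 ± 0.140 (95% interval -0.26 to 0.32). Tlr1, its partner, was at 0.765 and 0.402 CPM in WT, 1.07 and 1.87 in CKO, 1.08 and 1.05 in AD WT and 1.73 and 1.73 in AD CKO. Tlr1 rose by 1.33 ± 0.401 in CKO against WT (adjusted p = 0.00611), a call lost without the second WT (0.92, adjusted p = 0.0969) or second CKO library (0.88, adjusted p = 0.116). Tlr6 was at 2.66 to 4.19 CPM in the 8 libraries and passed in no comparison, with an interval from -0.59 to 0.26 in CKO against WT.

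Cd14 was at 10.6 and 8.38 CPM in WT astrocytes, 68.1 and 59.8 in CKO, 22.3 and 21.3 in AD WT and 27.0 and 23.5 in AD CKO. The CKO libraries stood far above the others, and Cd14 rose 6.76-fold in CKO against WT (log2 2.76 ± 0.107, adjusted p = 2.52e-14). The difference in AD CKO against AD WT was 0.21 ± 0.099 (adjusted p = 0.0817), a value that passed with the replicate block (0.21, adjusted p = 0.0152), with RLE scaling (0.24, adjusted p = 0.0461), with total counts alone (0.41, adjusted p = 0.00134), without a filter (0.23, adjusted p = 0.019) and with the 2 groups fitted alone (0.25, adjusted p = 0.023). Tlr4 was at 9.57 and 8.50 CPM in WT, 9.36 and 10.6 in CKO, 5.57 and 6.96 in AD WT and 8.97 and 9.93 in AD CKO, so the AD WT libraries alone were low. It rose by 0.60 ± 0.140 in AD CKO against AD WT (adjusted p = 0.0011) and differed by 0.14 ± 0.137 in CKO against WT (adjusted p = 0.382).

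Tlr7 was at 0.731 and 1.55 CPM in WT astrocytes, 5.69 and 6.49 in CKO, 3.34 and 3.87 in AD WT and 5.13 and 5.35 in AD CKO. It rose 5.25-fold in CKO against WT (log2 2.39 ± 0.247, adjusted p = 1.76e-08) and 1.45-fold in AD CKO against AD WT (0.54 ± 0.210, adjusted p = 0.0354). The latter call was lost with DESeq2 (0.57, adjusted p = 0.0675) and without the first AD WT (0.45, adjusted p = 0.177), first AD CKO (0.59, adjusted p = 0.0788) or second AD CKO library (0.52, adjusted p = 0.131). Myd88 was at 27.7 and 24.9 CPM in WT, 34.1 and 34.2 in CKO, 27.3 and 27.1 in AD WT and 35.2 and 32.6 in AD CKO, so that the CKO and AD CKO libraries lay above all WT and AD WT libraries. It rose by 0.38 ± 0.079 in CKO against WT (adjusted p = 0.00026) and by 0.32 ± 0.078 in AD CKO against AD WT (adjusted p = 0.0017), whereas in microglia it fell in CKO. The overlapping gene Acaa1a was at 157 to 217 CPM in these libraries, and Tmbim4, which overlaps Irak3, at 138 to 258. Irak3 was at 4.14 and 4.95 CPM in WT, 9.54 and 10.1 in CKO, 4.22 and 6.46 in AD WT and 7.66 and 7.61 in AD CKO, and rose by 1.10 ± 0.172 in CKO against WT (adjusted p = 7.63e-06) and by 0.52 ± 0.169 in AD CKO against AD WT (adjusted p = 0.0133). The latter call was lost without the first AD WT (0.25, adjusted p = 0.273) or second AD CKO library (0.53, adjusted p = 0.0511).

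In the astrocyte libraries of AD WT, Cd14 and Tlr7 were higher than in WT. In AD WT against WT 2 of the 9 genes rose (20.0% of all genes tested) and 2 fell (18.0% of all), with a median of 0.23 against 0.03 over all genes. Tlr7 rose by 1.64 ± 0.257 (adjusted p = 3.35e-05) and Cd14 by 1.21 ± 0.112 (adjusted p = 9.64e-08). Tlr4 fell by 0.53 ± 0.143 (adjusted p = 0.00568) and Tlr3 fell by 0.18 ± 0.051 (adjusted p = 0.00856). The Tlr4 call was lost without the first WT (-0.45, adjusted p = 0.0579) or first AD WT library (-0.38, adjusted p = 0.0996), and the Tlr3 call without the second WT (-0.18, adjusted p = 0.0533) or first AD WT library (-0.13, adjusted p = 0.12).

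In AD CKO against CKO 1 of the 9 genes rose (31.4% of all genes tested) and 1 fell (28.4% of all), with a median of -0.01 over the 9 and over all genes. Tlr3 rose by 0.70 ± 0.053 (adjusted p = 1.59e-10) and Cd14 fell by 1.34 ± 0.094 (adjusted p = 4.29e-10). Tlr2 at 0.18 ± 0.089 (adjusted p = 0.0907) and Irak3 at -0.36 ± 0.16 (adjusted p = 0.0592) passed under several other settings, the replicate block among them (adjusted p = 0.0371 and 0.0305). The knockout effect was called higher with the model for 1 gene, Tlr3 (29.5% of all were called in that direction), and lower for 3 genes (28.3% of all), with a median of -0.06 against -0.02. Tlr4 was just short of the threshold at 0.45 ± 0.196 (adjusted p = 0.0516). It passed with RLE scaling (0.48, adjusted p = 0.0426), total counts alone (0.56, adjusted p = 0.018), no filter (0.48, adjusted p = 0.0378), the replicate block (0.46, adjusted p = 0.0349) and without the second WT, second CKO, second AD WT or first AD CKO library, at 0.55 to 0.64. The differences of the effects were -2.54 ± 0.146 for Cd14 (adjusted p = 2.5e-11), -1.85 ± 0.328 for Tlr7 (adjusted p = 4.7e-05) and -0.58 ± 0.241 for Irak3 (adjusted p = 0.0428). The Irak3 call was lost with RLE scaling (-0.56, adjusted p = 0.0508), total counts alone (-0.48, adjusted p = 0.0985), DESeq2 (-0.57, adjusted p = 0.11) and without any one of 6 libraries, at -0.61 to -0.23.

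The astrocyte libraries carried microglial transcripts in amounts that moved with the groups. Summed microglial markers were at 602 to 609 CPM in WT, 2686 to 2773 in CKO, 1533 to 1553 in AD WT and 1568 to 1596 in AD CKO. The mean level of each gene in astrocytes as a percentage of its level in microglia shows which genes lay near those markers, with the reserve that the cell types were scaled separately. For the 12 markers the median percentage was 0.840 in WT, 8.35 in CKO, 2.99 in AD WT and 3.58 in AD CKO, with ranges of 0.478 to 1.87, 1.34 to 10.6, 0.960 to 4.49 and 1.81 to 5.21. Tlr1 (0.896, 2.68, 1.99 and 2.97) and Tlr7 (0.480, 2.61, 1.63 and 1.95) lay within the range of the markers in every group. The lower end of that range was Csf1r in each group. In CKO both genes lay above Csf1r (1.34) alone, with Cx3cr1 the next marker at 3.39 and the median far above them. Tlr7 also lay above Csf1r alone in WT (0.478) and in AD CKO (1.81). Tlr2 was at 6.06% in WT, above the markers, 6.23% in CKO, within them, and 4.90% and 5.30% in AD WT and AD CKO, above them. Cd14 was at 2.34%, 23.1% and 4.21% in the first 3 groups and 4.26% in AD CKO, above the markers in WT and CKO and within their range with the disease model.

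Of the remaining genes, Myd88, Irak3 and Tlr3 stood above the markers in every group. Tlr4 was at 6.18%, 9.01%, 5.43% and 8.90% in WT, CKO, AD WT and AD CKO, and Tlr6 at 6.74%, 9.83%, 9.63% and 10.6%, both within the range of the markers in CKO only. Tlr9, on few reads, was at 6.89% in WT and 1.07% in CKO and had 0 reads in the other groups. Myd88 was at 24.5%, 43.0%, 34.2% and 43.2%, and Irak3 at 47.9%, 79.9%, 50.3% and 51.4%. Tlr3 was at 231% in WT, 82.7% in CKO, 249.8% in AD WT and 144% in AD CKO, the only one of the 10 with a higher level in astrocytes than in microglia in any group. The part of microglial transcripts in the astrocyte results was not tested.

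**Figure D4:**
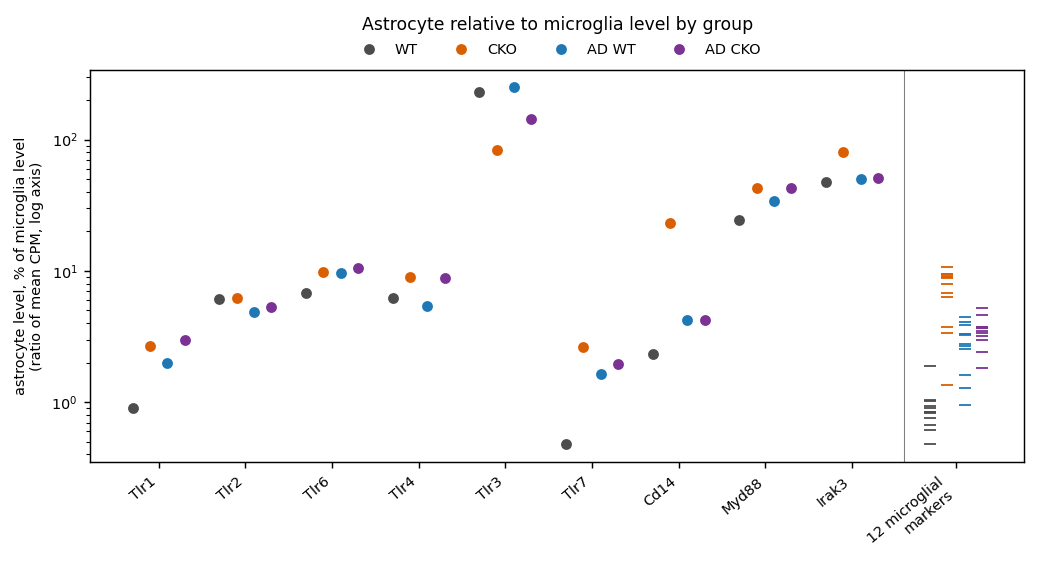
Mean CPM in astrocytes as a percentage of mean CPM in microglia on a log axis, with points for 9 of the genes in each group (Tlr9, with at most 8 reads in an astrocyte library, is left out) and dashes for the 12 microglial markers. Tlr1 and Tlr7 lie within the range of the dashes of their group, but in CKO above the lowest dash only. Tlr3 lies above 100% in WT, AD WT and AD CKO.

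Of the 66 further pathway genes 61 were tested in astrocytes. In CKO against WT 33 rose and 17 fell (31.6% and 32.4% of all genes tested), with a median of 0.58 against 0.01 over all genes. The lists are given by role, and differences between them were not tested. Nor was the part of microglial transcripts in the astrocyte results of these pathway genes. All 11 target genes tested rose, among them the adhesion gene Icam1 by 3.30 ± 0.063 and Cxcl10 by 3.85 ± 0.11. Of 9 accessory genes 7 rose and 2 fell, with Ly86, which encodes the partner MD-1 of the receptor homologue CD180, up by 3.02 ± 0.074. Of 9 transcription factor genes 7 rose and 0 fell, with Irf8 up by 2.27 ± 0.13. Mean Irf8 was 3.29 CPM in WT and 16.0 in CKO astrocytes, and 640 and 618 in the same groups of microglia. Of 15 kinase and ubiquitin ligase genes 0 rose and 12 fell, among them the kinase adaptor gene Tab1, which fell by 1.35 ± 0.088, and Irak2, which fell by 0.62 ± 0.056. Nfkbia rose by 2.09 ± 0.066 and Tollip, another inhibitor, fell by 0.93 ± 0.056.

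With the disease model present, 28 of the 61 rose in AD CKO against AD WT and 8 fell (25.1% and 27.0% of all), with a median of 0.21 against -0.03. Of the 11 targets 5 rose and 0 fell, Cxcl10 by 3.54 ± 0.090 and Icam1 by 0.87 ± 0.062, and of the kinase list 4 rose and 3 fell. Lbp, a lipopolysaccharide-binding protein, rose by 0.72 ± 0.051, Irf7 by 1.74 ± 0.070 and Tnfaip3, an NF-kB inhibitor, by 1.02 ± 0.12. In AD WT against WT 27 rose and 10 fell (20.0% and 18.0% of all), with Ccl3 up by 2.83 ± 0.14, Irf8 by 2.27 ± 0.13 and Ly86 by 2.11 ± 0.076. Mean levels of Ccl3, Irf8 and Ly86 in WT were 2.21, 3.29 and 10.1 CPM in astrocytes and 184, 640 and 1153 in microglia. In AD WT they were 15.8, 15.9 and 43.9 in astrocytes and 464, 675 and 1287 in microglia. Between AD CKO and CKO 24 rose and 20 fell (31.4% and 28.4% of all), with AD CKO higher for 12 of the 15 kinase genes and lower for 7 of the 11 targets, Icam1 among the latter, where it fell by 2.15 ± 0.058. The knockout effect was higher with the model for 15 of the 61 and lower for 26 (29.5% and 28.3% of all), with Tab1 at 1.50 ± 0.12 and Nfkbia at -2.52 ± 0.092. Tlr8 had 1 and 9 reads in WT, 36 and 25 in CKO, 0 and 0 in AD WT and 18 and 18 in AD CKO. Tlr11, Il6, Il12b, Il10 and Ifnb1 had too few reads to be tested.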

How the data were processed

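Bulk RNA sequencing of mouse microglia and astrocytes was analysed, 8 libraries per cell type. Per the labels, RNA taken with TRIzol was amplified from 10 ng with SMART-Seq v4 and read as pairs of 150 bases. The authors deposited expected counts per gene, that is estimated read counts that are not scaled and are partly fractional (27.0% to 33.6% of the non-zero values of a library). Per the submitters' processing notes, fastp, HISAT2 and StringTie were used with build mm10, without versions or roles. Which annotation release and counting program were used is not given in the sources used here.

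Counts were rounded and each cell type was fitted alone in R 4.3.3 with edgeR 4.0.16 (filterByExpr, TMM, robust quasi-likelihood tests, two-sided), over 17318 genes in microglia and 20116 in astrocytes, in 5 comparisons. Adjusted p-values are Benjamini-Hochberg values over all genes of a comparison, and the code was tested on simulated data. There a larger share of calls than the nominal rate was false in the knockout comparisons, so calls near the threshold are the least firm. All 10 genes were named in every comparison, with, from each further list, up to 2 genes of smallest p among those called. Genes of like pattern were sought among tested genes with a mean of at least 5 CPM, by log2 CPM computed after adding a prior count of 2. The members, the lists and the alternatives were chosen with earlier results of these data known. Alternatives were RLE scaling, total counts alone, no filter, a replicate block, DESeq2 1.42.0, only the groups compared, and leaving out each library. Replicates of a group differed well beyond sampling noise (chi-square of 3.63 to 6.41 per gene), so none was counted as a duplicate. Coordinates, exons and coding sequence come from GENCODE M21 by gene identifier, and promoter windows from RefSeq.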

Additional observations from a re-analysis of the deposited data

Results flagged for a closer look

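For 10 values the knockout effect differed between mice with and without the disease model, by an interaction term of the edgeR fit at an adjusted p under 0.05. In microglia the effect on the log2 scale with the model minus that without it was 0.37 for Tlr1, 0.50 for Tlr6, 0.28 for Tlr4, 0.31 for Tlr7, 0.75 for Cd14 and 0.42 for Myd88. In astrocytes it was 0.88 for Tlr3, -1.85 for Tlr7, -2.54 for Cd14 and -0.58 for Irak3. Cd14 and Tlr7 had opposite signs in the 2 cell types, and the difference between cell types was not tested. The calls for Tlr4 in microglia and Irak3 in astrocytes were lost under several alternatives.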

How the results depend on the processing

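Over the 10 genes and 5 comparisons there were 95 results, 51 of them called. Of 704 alternative values for the called results, 661 kept direction and call, 43 kept the direction but lost the call and 0 reversed, and 37 of the 51 held under every alternative run. For the named pathway genes 111 of 130 did. The microglial interaction count of 6 ran from 3 to 6 when single libraries were left out. The astrocyte AD CKO against CKO count of 2 became 4 without a filter on low counts and 4 with the replicate block. Within a cell type, deviations of same-numbered libraries from their group means had correlations of only -0.03 to 0.05. They gave no sign of pairing by number, but this check cannot show that samples were not paired. Pairing between the cell types was not checked. Genes called over the whole set in the microglial interaction went from 2202 to 1457 or 1385 without the first or second AD WT library. With total counts as the only scaling the median of all genes lay at 0.161 in astrocyte AD CKO against AD WT and 0.106 in AD CKO against CKO. That scaling moved the split of higher and lower calls from 5058 and 5425 to 7244 and 3117 in astrocyte AD CKO against AD WT. In microglia the split went from 1339 and 1199 to 698 and 2023 in AD CKO against CKO, from 1851 and 1492 to 1592 and 2221 in AD WT against WT and from 957 and 1245 to 631 and 1366 in the interaction.

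Reversals occurred only among values that were not called. With total counts alone these were microglial Tlr7 in CKO against WT (0.016) and Tlr1 in AD CKO against CKO (-0.0051), and astrocyte Tlr6 in AD CKO against AD WT (0.12), Tlr4 and Myd88 in AD CKO against CKO (0.042 and 0.10) and Myd88 in the interaction (0.049). Without a filter they were microglial Tlr3 in CKO against WT (-0.00054), microglial Myd88 in AD CKO against CKO (0.016) and astrocyte Myd88 in that comparison (0.0034). Leaving out single libraries gave ranges across 0 in microglia for Tlr3 (-0.045 to 0.078) and Tlr7 (-0.12 to 0.034) in CKO against WT, Myd88 in AD CKO against AD WT (-0.080 to 0.050), Tlr4 (-0.16 to 0.073), Tlr9 (-0.15 to 0.48) and Myd88 (-0.021 to 0.0091) in AD CKO against CKO, and Tlr2 in the interaction (-0.097 to 0.014). In astrocytes they were Myd88 (-0.037 to 0.12) and Irak3 (-0.12 to 0.50) in AD WT against WT, Tlr6 in AD CKO against AD WT (-0.18 to 0.045), Tlr1 (-0.11 to 0.70), Tlr4 (-0.16 to 0.019) and Myd88 (-0.056 to 0.050) in AD CKO against CKO, and Myd88 (-0.12 to 0.034), Tlr2 (-0.093 to 0.18) and Tlr6 (-0.037 to 0.23) in the interaction. The cause of these changes was not tested. Low read numbers limit Tlr9 in both cell types and Tlr1 and Tlr7 in astrocytes.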
